A study of Sus scrofa domesticus with 4 samples.

Results

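The 4 genes of metal storage and handling described here were measured in slices of pig endometrium kept in culture, some of them with orexin A (OXA). They are MT1A, a metallothionein; FTL and FTH1, the light and heavy subunits of ferritin; and STEAP1, of the STEAP family of membrane proteins. They were picked by gene symbol after their OXA response on these same arrays was known, so their values under OXA are a description and carry no test. Every probe whose RefSeq accession maps to one of the 4 symbols was taken. These were 14 of the 43603 probes on the array, 2 for MT1A, 1 for FTL, 10 for FTH1 and 1 for STEAP1, and they stand for 4 of the 3029 genes that could be named. All 14 were well above background in 8 of 8 readings (4 arrays in 2 dyes), none was saturated, and all 14 passed the filter on dim probes.

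The series asked what OXA, a neuropeptide hormone known from feeding and arousal, does to the lining of the uterus around implantation. The tissue came from 4 Large White x Polish Landrace gilts aged 7 to 8 months on days 15 to 16 of gestation. Slices rested for 2 h. OXA was then present for 24 h, at 10 nM per the sample labels (10 µM in the design text of the series), while control slices got no treatment. Each of 4 Agilent arrays, read in 2 colours, set 1 OXA-treated RNA against 1 control RNA. By the dye labels of each sample, OXA was in the red dye Cy5 on arrays 1 and 3 and in the green dye Cy3 on arrays 2 and 4. The text of the labelling protocol differs from this and puts OXA in Cy5 on every array. The labels do not tie an array to a gilt, so its RNAs may come from the same animal or from different ones. A slice holds many cell types, so fewer cells of a type and less RNA per cell cannot be told apart.

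Metallothioneins are small cysteine-rich proteins that bind zinc and copper, and their genes are switched on by zinc through the transcription factor MTF1 and by glucocorticoids. Ferritin is a hollow shell of heavy and light subunits that stores iron; the heavy subunit oxidises iron and the light one helps to lay down the core, and both are controlled largely at translation by iron regulatory proteins such as the one encoded by IREB2. STEAP proteins sit in membranes, and several of them reduce iron and copper so that transporters can move them. In the pregnant pig the uterine glands also secrete uteroferrin, the iron-binding phosphatase encoded by ACP5, which carries iron to the conceptus.

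MT1A (gene 397417) was lower with OXA on each of the 4 arrays. Its brighter probe had a normalized log2 intensity of 16.59, 16.44, 16.81 and 17.01 in the OXA-treated RNA of arrays 1 to 4, and of 17.52, 17.22, 17.71 and 17.64 in the control RNA. The highest OXA-treated value lay under the lowest control value, so the groups did not overlap. Among the 2407 named genes tested, 0.166% had all OXA values under all control values, and 5.86% were lower on 4 of 4 arrays; MT1A was chosen on this contrast, so nothing is read from its place among them. The log2 ratios of OXA over control were -0.92, -0.78, -0.90 and -0.63, with a mean of -0.81 ± 0.13 (SD, n = 4), a fold of 0.571.

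The other MT1A probe gave the same picture. Its log2 ratios were -1.0, -0.74, -0.95 and -0.57, with a mean of -0.82 ± 0.20 (SD, n = 4). Its intensities overlapped slightly, since array 4 had 16.95 with OXA and array 2 had 16.92 without. Both orientations of the dyes showed the lower level. Where OXA was in Cy5 the brighter probe averaged -0.91, and where it was in Cy3 it averaged -0.71. Pig metallothionein genes are close copies of each other, MT1D lies in the neighbourhood of MT1A in RefSeq, and which of them these probes also bind was not tested.

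FTL (gene 397035) did not move one way across the arrays. Its single probe had an intensity of 17.61, 16.57, 17.41 and 16.45 with OXA and of 17.55, 17.66, 17.25 and 17.34 without. The log2 ratios were 0.06, -1.09, 0.16 and -0.89, so 2 arrays were slightly above 0 and 2 far below it. The mean of -0.44 ± 0.64 (SD, n = 4) was smaller than the spread between arrays. The 2 low arrays were those with OXA in Cy3, at an average of -0.99, against 0.11 on the 2 arrays with OXA in Cy5. In the fit, which gives dye a coefficient of its own, the standard error was 0.07, because that coefficient (0.55) takes up the split.

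FTH1 (gene 397030) split in the same way and more widely. Its brightest probe had an intensity of 18.37, 17.05, 17.94 and 17.43 with OXA and of 17.20, 18.20, 17.66 and 18.20 without. The log2 ratios were 1.17, -1.15, 0.29 and -0.77, which average to -0.11 ± 1.05 (SD, n = 4). Neither direction therefore held beyond the spread between arrays. In the fit, with its dye coefficient, FTH1 was 0.11 without array 3 and -0.34 without array 1. Array 3 was the 1 array whose omission turned the sign in that fit. These are not plain means of the ratios above.

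The 10 FTH1 probes repeated this pattern one after another. On array 2 they ran from -1.47 to -0.90 and on array 4 from -1.20 to -0.31, with 10 of 10 below 0 on both. On array 1 they ran from -0.02 to 1.24 and on array 3 from -0.02 to 0.52, with 1 of 10 below 0 on each. Means over the 4 arrays ran from -0.41 to 0.01 with 9 of 10 below 0. All bind the transcript of 1 gene and were read on the same arrays, so they are not replicates of the OXA contrast.

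**Figure D1:**
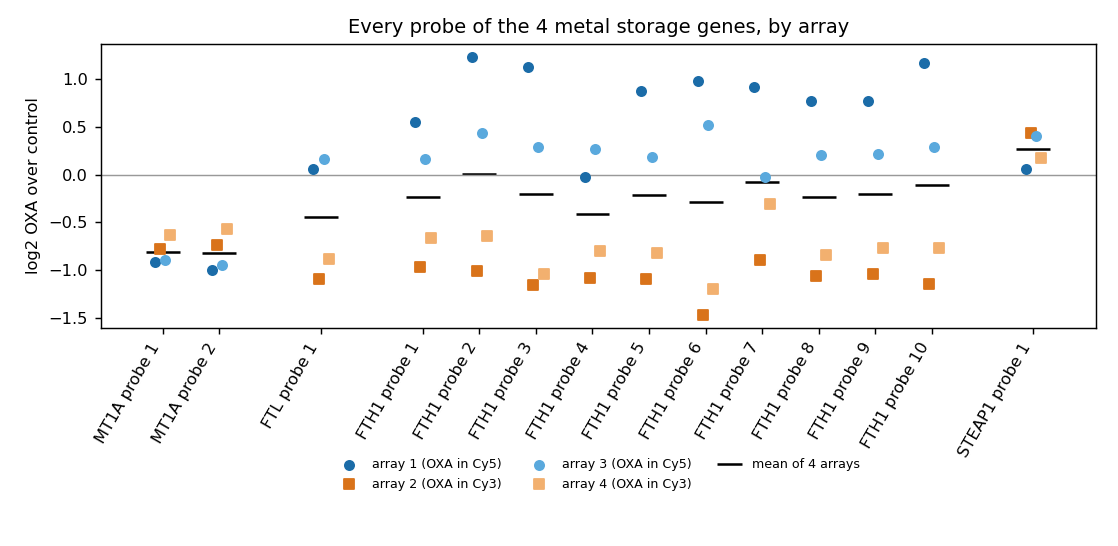
Log2 OXA over control (vertical axis) of each probe of the 4 genes (horizontal axis); points are arrays, circles with OXA in Cy5 and squares with OXA in Cy3, and bars are means of 4 arrays. Both MT1A probes lie below 0 on every array, with means of -0.81 and -0.82, while FTL and the FTH1 probes part by dye, with squares between -1.47 and -0.31.

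**Figure D2:**
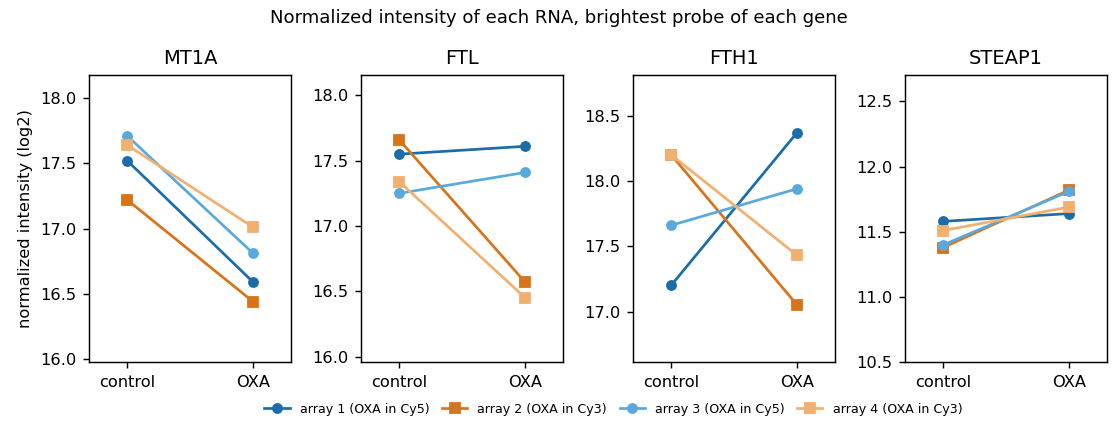
Normalized log2 intensity (vertical axis, a span of the same size in each panel) of control and OXA-treated RNA for the brightest probe of each gene; a line joins the RNAs of 1 array. MT1A falls on each array, STEAP1 rises slightly on each, and the ferritin lines cross.

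Read as Cy5 over Cy3 after loess normalization, without turning the arrays by their labels, the ferritins were brighter in Cy5 on nearly every reading. The exceptions were 1 FTH1 probe on array 1 and 1 on array 3, both at -0.02. Cy5 over Cy3 for FTL was 0.06, 1.09, 0.16 and 0.89, and for the brightest FTH1 probe it was 1.17, 1.15, 0.29 and 0.77. For MT1A it was -0.92, 0.78, -0.90 and 0.63. After loess MT1A thus changed sign as the dye of OXA changed, and FTL and the brightest FTH1 probe did not. Before background correction and loess MT1A did not change sign either. Its Cy5 over Cy3 was then 0.31, 2.91, 2.20 and 2.66, and that of FTL was 1.32, 3.26, 3.26 and 2.85. With OXA taken as Cy5 on all arrays, as the labelling protocol words it, MT1A was -0.10, FTL 0.55, FTH1 0.84 and STEAP1 -0.04. On that reading OXA and dye could not be told apart, and these values equal the dye coefficients of the fit by the labels. Which description of the dyes holds therefore decides the sign or size of all 4. Set against the scanner's Cy5 over Cy3, the authors' deposited log2 ratios had a positive slope on arrays 1 and 3. On arrays 2 and 4 the slope was negative. The authors' ratios were thus turned as in the dye labels and not as in the labelling protocol. Which dye each RNA received was not tested.

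**Figure D3:**
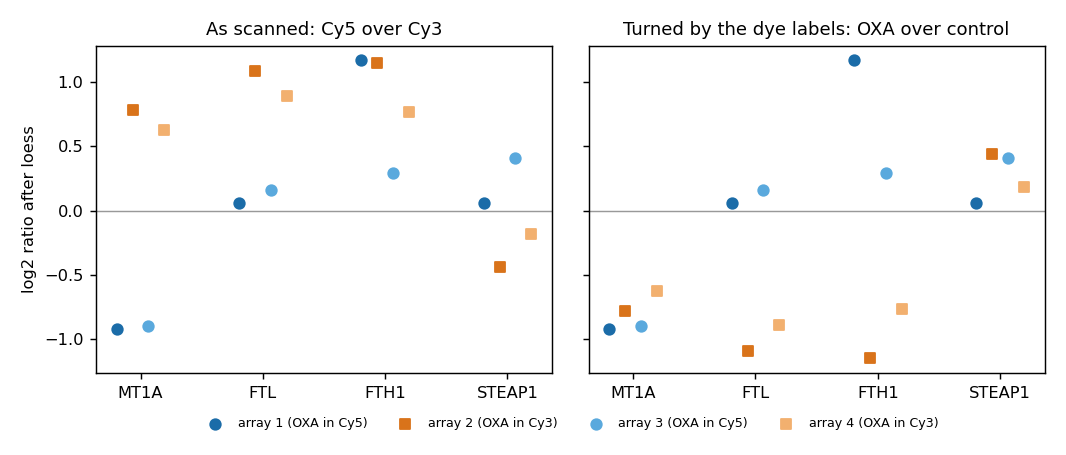
Log2 ratios after loess for the brightest probe of each gene, as Cy5 over Cy3 (left) and as OXA over control by the dye labels (right); points are arrays. On the left the 4 points of FTL and of FTH1 are above 0 and those of MT1A lie on both sides; on the right those of MT1A gather between -0.92 and -0.63.

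MT1A, FTL and FTH1 were among the brightest probes on the array, and their dye ratios were corrected by more than that of the median probe. Of 26927 probes tested, 147 were brighter than the brighter MT1A probe, 115 than the FTL probe and 5 than the brightest FTH1 probe. The loess step, which removes the trend of the dye ratio with brightness, took 1.23, 2.12, 3.11 and 2.04 off the Cy5 over Cy3 log2 ratio of MT1A on arrays 1 to 4. For the median probe it took off 0.46 to 0.96. For MT1A the correction was thus larger on each array than the difference it left.

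With each array only centred on its median, in place of loess, the MT1A ratios were 0.44, -2.12, 2.06 and -2.21. They then parted by dye like those of the ferritins, and their mean was -0.46 ± 2.08 (SD, n = 4), where the median of all probes was 0.14. With no background correction before loess they were -1.03, -0.59, -0.55 and -0.88. Agilent's own log ratio, made by the scanner software, gave -1.14, -0.66, -0.67 and -0.67. The lower level on 4 of 4 arrays was present in Agilent's log ratio and after loess, with background correction or with none, and absent with median centring.

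**Figure D4:**
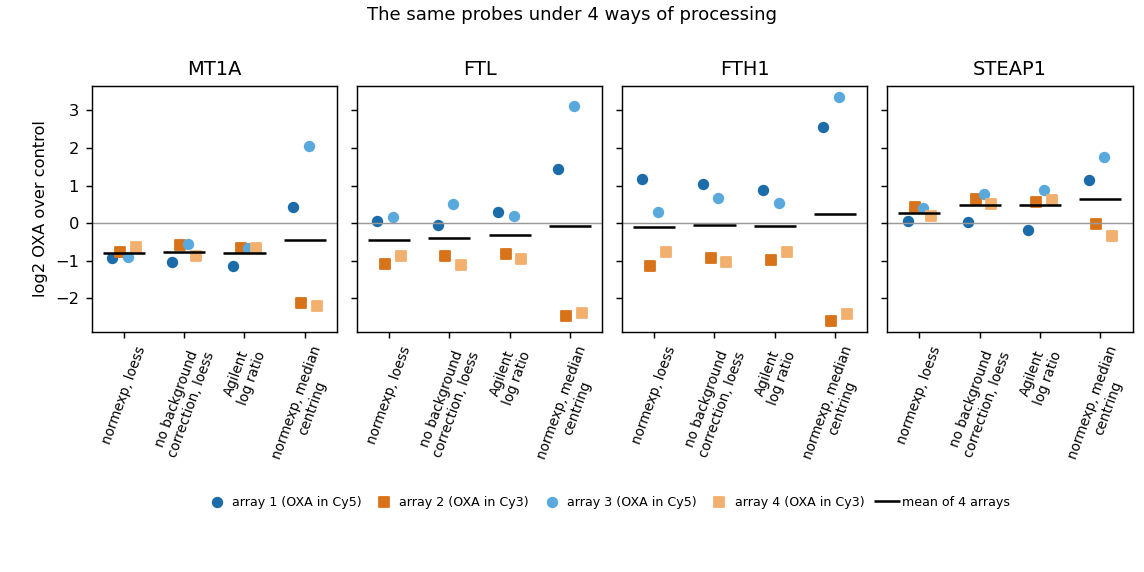
Log2 OXA over control (vertical axis) of the brightest probe of each gene under 4 ways of processing (horizontal axis); points are arrays and bars their means. The first 3 ways keep MT1A between -1.14 and -0.55, while median centring spreads it from -2.21 to 2.06.

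Set against FTL on the same array, MT1A gave differences that parted by dye. The difference between their log2 ratios was -0.99 on array 1, 0.31 on array 2, -1.06 on array 3 and 0.26 on array 4, with a mean of -0.37 ± 0.75 (SD, n = 4). These differences were below 0 only where OXA was in Cy5. Against FTH1 the differences were -2.10, 0.37, -1.19 and 0.14, again below 0 only with OXA in Cy5. The ferritins themselves parted by dye, while MT1A ran from -0.92 to -0.63. The differences therefore carry the split of the ferritins and do not measure MT1A alone.

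STEAP1 (gene 397573) was slightly higher with OXA on 4 of 4 arrays. Its single probe had an intensity of 11.64, 11.82, 11.81 and 11.69 with OXA and of 11.58, 11.38, 11.40 and 11.51 without. The lowest OXA-treated value, on array 1, lay just above the highest control value, also on array 1. All OXA values lay above all control values in 0.249% of named genes, and 2.83% were above 0 on 4 of 4 arrays; here too nothing is read from that, since the gene was chosen on this contrast. The log2 ratios were 0.06, 0.44, 0.41 and 0.18, with a mean of 0.27 ± 0.18 (SD, n = 4), a fold of 1.21.

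The size of the STEAP1 difference moved with the processing. It was 0.49 with no background correction, 0.47 with Agilent's log ratio and 0.63 with median centring. In Agilent's log ratio array 1 was below 0, at -0.18, against 0.57, 0.87 and 0.61 on the others. With median centring the arrays gave 1.15, -0.03, 1.75 and -0.35 (SD 0.99), so that STEAP1 too parted by dye and 2 of 4 arrays were below 0. RefSeq does not class this STEAP1 entry as protein coding, and the named genes nearest to it are RPL3 and CBX7. None of STEAP2, STEAP3 and STEAP4 had a probe that could be named, so the family was not compared.

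Around the 4 genes, 118 other genes of zinc, iron, haem and copper handling were listed by function. Of these, 43 had a named probe and 41 were tested. Their median log2 ratio was -0.05, with 27 below 0 and 14 above, beside -0.02 over all 2407 named genes, of which 1383 were below 0. In limma's test with Benjamini-Hochberg adjustment 0 of the 41 passed an adjusted p of 0.05, as did 0 of 26927 probes (0%), although 500 probes had an unadjusted p under 0.05. A looser rule asked for a fold of at least 1.2 and an unadjusted p under 0.05. It was met by 1 of the 41 in the lower direction and by 0 in the higher, against 1.87% and 0.582% of all named genes, or 0.672% and 0.624% of all probes. Without array 3 it was met by 6 of the metal genes (SLC30A1, SLC30A9, TFRC, TF, HP and LOX), beside 3115 of 26927 probes. Without array 2 it was met by 0 of the metal genes, beside 295 of 26927 probes.

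Among zinc genes 10 were tested, with a median of -0.08 and 8 below 0. MT3, a metallothionein best known from brain, was the gene that met the looser rule, at -0.27 (SE 0.08), a fold of 0.828. Its arrays gave 0.18, -0.60, 0.23 and -0.90, the same parting by dye as in the ferritins, and it was 0.04 with median centring. MT3 lost this call whichever array was left out, at unadjusted limma p-values of 0.0554 to 0.234, and also with no dye coefficient, an intensity trend or array weights. SLC30A1, the zinc exporter of the cell surface and a known target of MTF1, was -0.98, -0.34, -0.02 and -0.12, below 0 on 4 of 4 arrays, with a mean of -0.36 (SE 0.18) that did not pass. Most of that mean came from array 1, on which MT1A was -0.92. On array 3, where MT1A was -0.90, SLC30A1 was close to 0. Whether the levels of these genes are linked was not tested. SLC30A9 and SLC30A3, of the same transporter family, were -0.22 (SE 0.13) and -0.13 (SE 0.09). In fits that left out 1 array, SLC30A1 ran from -0.61 to -0.12 and SLC30A9 from -0.37 to -0.07. With no background correction SLC30A1 was -0.49 and met the looser rule, as did 1406 of 26927 probes.

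Iron genes, leaving out the ferritins, numbered 14 with a median of -0.08, and 9 were below 0. ACP5, the uteroferrin gene, was 0.03, -0.48, -0.14 and -0.16, with a mean of -0.19 (SE 0.08) and 4 of 4 probes below 0, from -0.34 to -0.19. Like FTL it lay at the 99.6th percentile of brightness, and with OXA in Cy3 it was lower by less. TFRC, the transferrin receptor, was -0.85 on array 1 and between -0.02 and 0.02 on the others. TF, the iron carrier transferrin, was -0.60 on array 1 and between -0.23 and 0.04 on the others. IREB2 was 0.19 (SE 0.11) and NCOA4, the receptor that delivers ferritin for breakdown, was -0.15 (SE 0.09) with 4 of 4 arrays below 0. PCBP2, which passes iron to ferritin, was -0.20 (SE 0.10). SLC11A1, a metal transporter of phagocytes, was 0.25 (SE 0.13), CP, the ferroxidase ceruloplasmin, was 0.12 (SE 0.11), and LTF, lactoferrin, was 0.06 (SE 0.07). None of these met either rule with background correction, loess and all 4 arrays. In fits that left out 1 array, SLC11A1 ran from 0.12 to 0.39, TFRC from -0.42 to 0 and TF from -0.36 to -0.04. SLC11A1 met the looser rule without array 4, as did 2059 of 26927 probes. With no background correction NCOA4 was -0.39 and met the looser rule, as did 1406 of 26927 probes. With median centring SLC11A1, IREB2 and CP met it, at 0.57, 0.53 and 0.50. In that setting 4297 of 26927 probes met it, and the median of all probes was 0.14.

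Haem genes numbered 11, with a median of -0.04 and 8 below 0. HMOX1, the inducible haem oxygenase that frees iron from haem, was 0.21, -0.51, -0.71 and -0.60, with a mean of -0.40 (SE 0.17) that did not pass. In the fit with its dye coefficient HMOX1 was -0.63 without array 1, where it met the looser rule, as did 285 of 26927 probes. Without array 3 HMOX1 was -0.17 and did not meet it. Its 3 probes ran from -0.40 to -0.03. HMOX2, the constitutive form, was -0.17 (SE 0.09) with 4 of 4 arrays below 0. HP and HPX, which bind free haemoglobin and haem, were -0.16 (SE 0.11) and 0.07 (SE 0.07).

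Copper genes numbered 6, with a median of 0.03 and 2 below 0. LOX, a copper-dependent oxidase that cross-links collagen, averaged 0.31 (SE 0.16), from 1.07 on array 1 down to -0.13 on array 2. SOD3, the extracellular superoxide dismutase, and SLC31A1, the copper importer, were each -0.11. CCS, the copper chaperone of superoxide dismutase, parted by dye, at 0.26 and 0.52 on arrays 1 and 3 and at -0.27 and -0.24 on arrays 2 and 4.

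**Figure D5:**
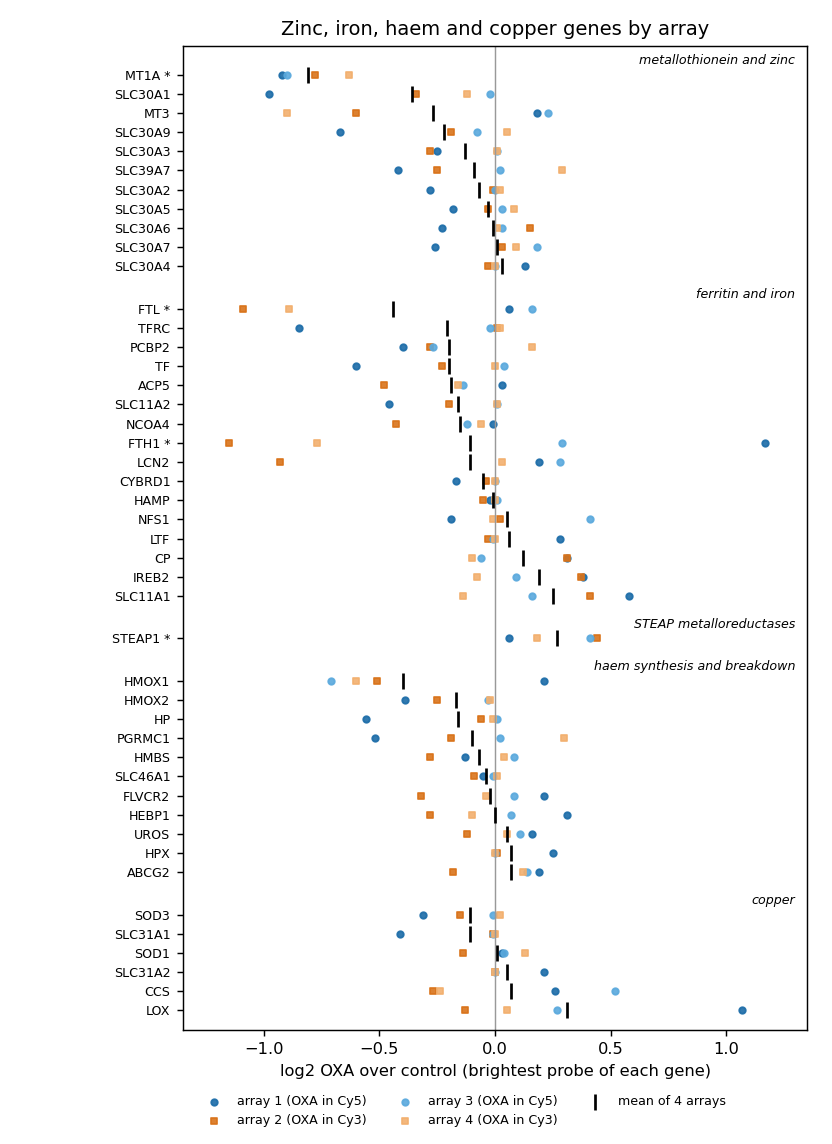
Log2 OXA over control (horizontal axis) of the brightest probe of each tested gene of zinc, iron, haem and copper handling (vertical axis, by list); points are arrays, bars are means, and asterisks mark MT1A, FTL, FTH1 and STEAP1. MT1A has its 4 points at -0.92 to -0.63, while means of the 41 other genes lie between -0.40 and 0.31.

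Over the 4 arrays, the named genes most like each of the 4 were found by the root mean square difference of their log2 ratios. FTH1 was followed most closely by FTHL17 (0.16), a ferritin heavy chain-like gene, whose single probe gave 1.01, -1.01, 0.16 and -0.56; transcripts of the FTH1 family are close copies, and whether that probe binds FTH1 itself was not tested. Next came TYROBP (0.27), a signalling adaptor of myeloid and NK cells, at 1.02, -0.66, 0.37 and -0.90, and FHL1 (0.31). FTL was followed by B2M (0.16), SLA-3 (0.16) and CCR1 (0.19), which gave -0.95 to -0.74 with OXA in Cy3. For MT1A the nearest were farther off, NMB (0.32), TCTEX1D4 (0.34) and GDF15 (0.38), all 3 below 0 on 4 of 4 arrays. STEAP1 had VDAC2 (0.09), UBE2K (0.12) and HSD17B7 (0.13) beside it, each of them within 0.05 of 0 on array 1.

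Among marker lists of cell types, 5 of 5 named epithelium genes and 3 of 4 named stromal genes passed the filter on dim probes, all 8 of them in 8 of 8 readings. The epithelium median was -1.04, -0.36, -0.20 and 0.64 on arrays 1 to 4, and the stromal median was 1.44, 0.02, 0.08 and 0.26. MT1A beside these was -0.92, -0.78, -0.90 and -0.63, and the part of either cell type in its values was not tested. Summed epithelium intensity ran from 16.25 to 16.80 (log2) with OXA and from 16.10 to 17.47 without. The myeloid list, of cells rich in ferritin, had 10 of 10 named genes tested and medians of 0.39, -0.18, 0.00 and -0.27; its summed intensity ran from 14.03 to 14.90 with OXA and from 13.95 to 15.13 without. Endothelium (5 genes) had medians of 0.65, -0.51, -0.06 and -0.41, and smooth muscle (4 genes) of 0.10, -0.84, 0.37 and -0.16. T and NK lymphocytes (9 genes) had 0.09, -0.28, 0.18 and -0.13, and conceptus trophoblast (6 genes) 0.17, -0.14, 0.06 and 0.01. The myeloid, endothelium, smooth muscle and lymphocyte lists were thus below 0 on both arrays with OXA in Cy3, as the ferritins were, and their part in the ferritin values was not tested. The red blood cell list had 1 named gene, HBE1, which was too dim to be tested, so red cells were not assessed. Array 1 was on another slide, scanned 71 days after the rest, and 31.8% of its probes were well above background in Cy3, against 52.1% to 56.7% on the others. In the fit within the slide of arrays 2 to 4, with its dye coefficient, MT1A was -0.80, FTL -0.42, FTH1 -0.34 and STEAP1 0.36.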

How the data were processed

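Gene expression was measured on 4 Agilent arrays, each holding 1 OXA-treated and 1 control RNA. The deposited scanner files hold median spot and local background intensity in both dyes, and per the file headers the software was Feature Extraction 10.7.3.1 of Agilent. Their log10 ratio of Cy5 over Cy3 came from the authors' scanner software, by a dye correction that the headers do not name, and the deposited value table holds log2 ratios. Set against the scanner ratios over 43420 probes, that table had slopes of 1.06, -1.00, 1.04 and -1.03, which gave a log2 scale and OXA over control; column medians were -0.17, 0.06, -0.06 and 0.09, and its centring is unknown.

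Medians were corrected by normexp (offset 50), normalized by loess, and Cy5 over Cy3 was modelled by limma 3.58.1 (R 4.3.3), OXA and dye having a coefficient each (2 residual degrees of freedom). Control and outlier spots were left out. Probes well above background in at least 4 of 8 readings were kept, 26927 of 43603. Symbols came from RefSeq accessions (Sscrofa11.1 table); 6700 of 7125 matched, and no build is named for the array. The kept probe of highest mean brightness stands for a gene. Intensities of single RNAs came from loess and then Aquantile scaling. P-values measure the spread between arrays of 1 dye orientation, which may be technical; the number of arrays limits precision. The scripts were tested on simulated data. The 4 genes and the 5 lists (122 genes) were chosen with earlier results of these data known. Named were the 4 genes, the 4 lowest unadjusted p of each list, MTF1, MT2A, MT3, SLC30A1, TFRC, TF, SLC40A1, IREB2, ACO1, NCOA4, HMOX1, ACP5, LTF, CP and the other STEAP genes where measured, and the 3 likest genes of each. Probe and protein sequences were not used here.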

Additional observations from a re-analysis of the deposited data

Results flagged for a closer look

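Of 47 sets of 4 array values examined, 5 held 1 array far from the other 3 by Dixon's gap test at its 95% critical value; chance alone flags about 5% of such sets. In all 5 the array apart was array 1, and none was a probe of MT1A, FTL, FTH1 or STEAP1. The copper importer SLC31A1 was -0.41 there and the transferrin receptor TFRC was -0.85. HP was -0.56, LTF was 0.28 and HPX was 0.25. On arrays 2 to 4 these genes lay between -0.06 and 0.02. Their brightness percentiles among probes tested ran from 11.1 (LTF) to 39.5 (TFRC). HP was well above background in 4 of 8 readings, and LTF and HPX in 6.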

How the results depend on the processing

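The filters on dim probes, the dye coefficient, the intensity trend and array weights leave the mean ratio of a probe as it is, the slide of arrays 2 to 4 is the fit without array 1, and for the brightest probes the authors' table gave the values of Agilent's log ratio, so these add nothing on direction. Arrays were left out 1 at a time in fits that kept the dye coefficient. There MT1A was -0.85 to -0.77, FTL -0.49 to -0.39, FTH1 -0.34 to 0.11 and STEAP1 0.19 to 0.36. These are not plain means, since that coefficient takes up the split of the ferritins by dye. MT1A was -0.46 with median centring and -0.10 with OXA in Cy5 on all arrays, where FTL was 0.55, FTH1 0.84 and STEAP1 -0.04. With OXA in Cy5 on all arrays, OXA and dye could not be told apart. FTH1 was 0.23 with median centring. STEAP1 was 0.49, 0.47, 0.47 and 0.63 with no background correction, Agilent's log ratio, the authors' table and median centring. The median of the metal lists was 0.15 with median centring, beside 0.14 for all probes. Metal genes at the looser rule, 1 in the main setting, were 3 with no background correction, 7 with median centring, 2 with OXA in Cy5 on all arrays, 0 with Agilent's log ratio, the authors' table, no dye coefficient, all 8 readings, an intensity trend or array weights, and 0 (without array 2) to 6 (without array 3) on leaving out arrays. Probes at that rule, 349 in the main setting, were 1406, 1829, 1824 and 4297 with no background correction, Agilent's log ratio, the authors' table and median centring, 193 with array weights, 679 with OXA in Cy5 on all arrays, and 285 to 3115 on leaving out arrays. Probes past an adjusted p of 0.05 were 0, and 0 to 6 on leaving out arrays, with 6 without array 4. Under median centring MT3 was 0.04, B2M 0.02, SLA-3 0.02 and CCR1 0.01, and with OXA in Cy5 on all arrays they were 0.48, 0.57, 0.52 and 0.42, with NMB at 0.03 and HSD17B7 at -0.10. Apart from the dye reading, the cause was not tested. Every ratio sets the 2 RNAs of 1 array against each other, so the fit is paired by array.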
